A study of Homo sapiens with 44 samples.

Results

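IDO1, IDO2, CD274 and PDCD1LG2 are 4 genes through which non-immune cells restrain T cells, and their chromatin was followed here in a human colon fibroblast line given single cytokines. The regions described are all peaks that the deposited accessibility table names after 1 of these genes, which gave 77 of the 407383 peaks of the series. IDO1 had 9 of them, IDO2 45, CD274 8 and PDCD1LG2 15. By the deposited classes, 45 were intronic, 18 distal, 8 exonic and 6 promoter peaks. Accessibility was measured by ATAC-seq, in which a transposase cuts open DNA and leaves sequencing adaptors there, in 44 libraries of Ccd18-Co cells. There were 4 libraries in each of 11 groups. One group was unstimulated, one received IL-1β at 0.1 ng/ml, and the others received TNF, IFNγ, IFNα, oncostatin M (OSM), TGF-β1, IL-22, IL-17A, IL-13 or IL-6 at 10 ng/ml. All groups, controls included, were kept in serum-free medium for the stimulation, and all come from 1 cell line. Nothing states whether the 4 libraries of a group came from separate cultures, so p-values measure only the spread between these libraries.

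IDO1 and IDO2 are neighbouring genes for enzymes that open the ring of tryptophan, the first and rate-limiting step of the kynurenine pathway. IDO1 carries out most of this activity and starves T cells of tryptophan, while IDO2 is a much weaker enzyme. CD274 encodes PD-L1 and PDCD1LG2 encodes PD-L2, the ligands of the inhibitory receptor PD-1 on T cells. IFNγ acts through JAK kinases and factors that bind GAS elements, and through interferon regulatory factors, which bind interferon-stimulated response elements (ISRE), while TNF acts largely through NF-κB and AP-1 factors and IL-13 through STAT6.

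The sequences of the CD274 promoter and of some PDCD1LG2 regions with motif matches are shown first, on the + strand of hg38. Matches to 5 searched motifs are in capitals. The motifs were GAS (TTCNNNGAA), ISRE (GAAA, any 2 bases, GAAA), AP-1 (TGANTCA), STAT6 (TTC, any 4 bases, GAA) and the NF-κB consensus, each read on both strands. The CD274 window lies at chr9:5450292-5450502 and holds 2 overlapping ISRE matches followed by a GAS match. The RefSeq promoter table for GRCh38.p14 has the same bases there. The PDCD1LG2 start-site window (chr9:5510282-5510531) has a STAT6 match and an AP-1 match, and the upstream window (chr9:5509673-5509922) an AP-1 match. The proximal intronic window (chr9:5531439-5531660) has an AP-1 and an NF-κB match, and the distal intronic window (chr9:5550066-5550220) has an ISRE, an AP-1 and a GAS match in that order.
CD274 promoter: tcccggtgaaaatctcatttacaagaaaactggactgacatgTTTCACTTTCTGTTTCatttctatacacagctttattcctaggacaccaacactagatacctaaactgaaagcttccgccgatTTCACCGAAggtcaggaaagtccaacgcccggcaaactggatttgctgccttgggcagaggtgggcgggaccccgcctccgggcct
PDCD1LG2 start-site peak: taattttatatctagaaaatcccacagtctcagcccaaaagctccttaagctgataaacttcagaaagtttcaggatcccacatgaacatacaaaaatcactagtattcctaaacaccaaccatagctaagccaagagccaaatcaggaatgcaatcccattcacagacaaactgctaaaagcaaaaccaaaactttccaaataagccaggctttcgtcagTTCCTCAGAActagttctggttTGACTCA
PDCD1LG2 upstream peak: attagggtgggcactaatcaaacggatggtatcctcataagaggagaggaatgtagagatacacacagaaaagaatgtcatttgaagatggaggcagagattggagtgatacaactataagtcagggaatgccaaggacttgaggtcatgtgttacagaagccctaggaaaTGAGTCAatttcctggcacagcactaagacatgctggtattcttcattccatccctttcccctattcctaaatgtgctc
PDCD1LG2 intronic peak, proximal: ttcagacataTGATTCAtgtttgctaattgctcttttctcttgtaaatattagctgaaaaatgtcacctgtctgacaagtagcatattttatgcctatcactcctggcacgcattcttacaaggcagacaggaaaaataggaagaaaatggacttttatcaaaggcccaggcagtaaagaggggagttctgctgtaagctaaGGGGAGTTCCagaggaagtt
PDCD1LG2 intronic peak, distal: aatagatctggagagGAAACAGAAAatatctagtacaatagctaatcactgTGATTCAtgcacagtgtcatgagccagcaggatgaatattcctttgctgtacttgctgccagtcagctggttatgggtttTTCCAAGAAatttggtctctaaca

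A motif match is a description of letters and not of binding. Over the 77 peaks, GAS matches were found in 29.9% (17.2% of all peaks of the table), ISRE in 14.3% (9.13% of all peaks), AP-1 in 32.5% (25.7%), STAT6 in 11.7% (14.4%) and NF-κB in 14.3% (13.0%). Of the 8 CD274 peaks 5 held an AP-1 match and 2 a GAS match, and of the 15 PDCD1LG2 peaks 7 held an AP-1 match and 4 a STAT6 match. No CD274 peak held a STAT6 match.

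Levels are given as coverage per Mb, the read coverage of a peak divided by the library's total coverage in megabases and a composition factor. Changes are on the log2(coverage per Mb + 0.5) scale ± SE, which understates the change of low peaks, and limma's p-values were adjusted by Benjamini-Hochberg over the 407156 peaks tested. A peak is called where the adjusted p-value was under 0.05. All 77 peaks passed the filter on low values. Library totals ran from 148.82 to 823.14 Mb, and the lowest total was that of IL-6 replicate 4, in which 27.1% of all peaks had no coverage. At these totals 3 reads correspond to 0.285 to 1.55 coverage per Mb, the upper limit that a value of 0 allows for counting error alone. Of the 45 IDO2 peaks 36 averaged under 5 read equivalents per library, against 5 of 9 for IDO1, 4 of 8 for CD274 and 5 of 15 for PDCD1LG2. All 10 fibroblast markers had a peak at their start site (4.53 to 38.2 coverage per Mb in unstimulated cells). Of the 6 epithelial markers only EPCAM and CLDN7 had one, at levels between 0.508 and 0.559, and 3 of the 6 leukocyte markers, PTPRC and CD3E among them, had none. The 4 endothelial markers lay between 0.538 and 1.71. Summed over the 3 leukocyte markers with a peak, the unstimulated libraries held 6.48 to 8.17, the IFNγ libraries 4.06 to 7.65 and the TNF libraries 7.21 to 9.79 coverage per Mb, and their part in the results was not tested. In bulk libraries a response in fewer cells and a weaker response per cell cannot be told apart.

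IFNγ raised accessibility at the IDO1 start site, in a region inside IDO2 and at the CD274 promoter, the last of which was already open. It raised 8 of the 77 peaks and lowered 0, which is 10.4% of them, where 1.57% of all tested peaks were called. The raised peaks were 3 named after IDO1, 4 named after IDO2 and 1 of CD274, and 0 of the 15 PDCD1LG2 peaks were called by limma, with 19 of the 77 peaks at an unadjusted p-value under 0.05. The median change of all 77 was 0.19, and that of all tested peaks was -0.01. Each cytokine was compared with the same 4 unstimulated libraries, so the comparisons are not independent of each other.

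The IDO1 start-site peak (chromosome 8, 39913664 to 39914164, hg38, over untranslated and coding exon sequence) held 0.860, 0.190, 0.909 and 1.05 coverage per Mb in the unstimulated libraries. The IFNγ libraries held 12.1, 10.1, 10.8 and 11.4. All 4 IFNγ libraries lay far above the unstimulated ones, which averaged 4.4 read equivalents against 72.0. The change was 3.27 ± 0.36 (limma adjusted p-value 1.03e-13). With IFNα the libraries held 1.13, 0.946, 1.46 and 1.81, which overlapped the unstimulated range (0.60 ± 0.36, adjusted p-value 0.679). The other 8 cytokines had group means of 0.697 to 1.29, close to the 0.752 ± 0.383 (SD, n = 4) of unstimulated cells. An ISRE match lies -111 to -102 bases from the start site within this peak.

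A pair of IDO1 peaks just upstream followed the same pattern. The peak at 39912463 to 39912963, whose centre lies -1.18 kb from the start site, held 1.37, 0.569, 1.5 and 0.734 coverage per Mb in unstimulated cells and 6.66, 8.53, 6.98 and 7.80 with IFNγ. The groups did not overlap (2.42 ± 0.37, limma adjusted p-value 1.99e-07). It holds 2 GAS matches, at -1215 to -1207 and -1100 to -1092 bases, and 2 AP-1 matches. The peak between them, at 39913150 to 39913650, held 0.289, 0.167, 0.448 and 0.645 in unstimulated cells and 3.49, 3.49, 2.64 and 2.06 with IFNγ, again without overlap (1.95 ± 0.38, adjusted p-value 1.58e-04), and has a GAS match at -419 to -411 bases. The other 6 IDO1 peaks, between -42.29 and -13.17 kb from the start site, were called for no cytokine. Summed over its 9 peaks, IDO1 held 26.4 ± 0.561 coverage per Mb with IFNγ and 7.01 ± 2.23 in unstimulated cells (SD, n = 4), and 6.17 to 8.38 with the other cytokines.

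**Figure D1:**
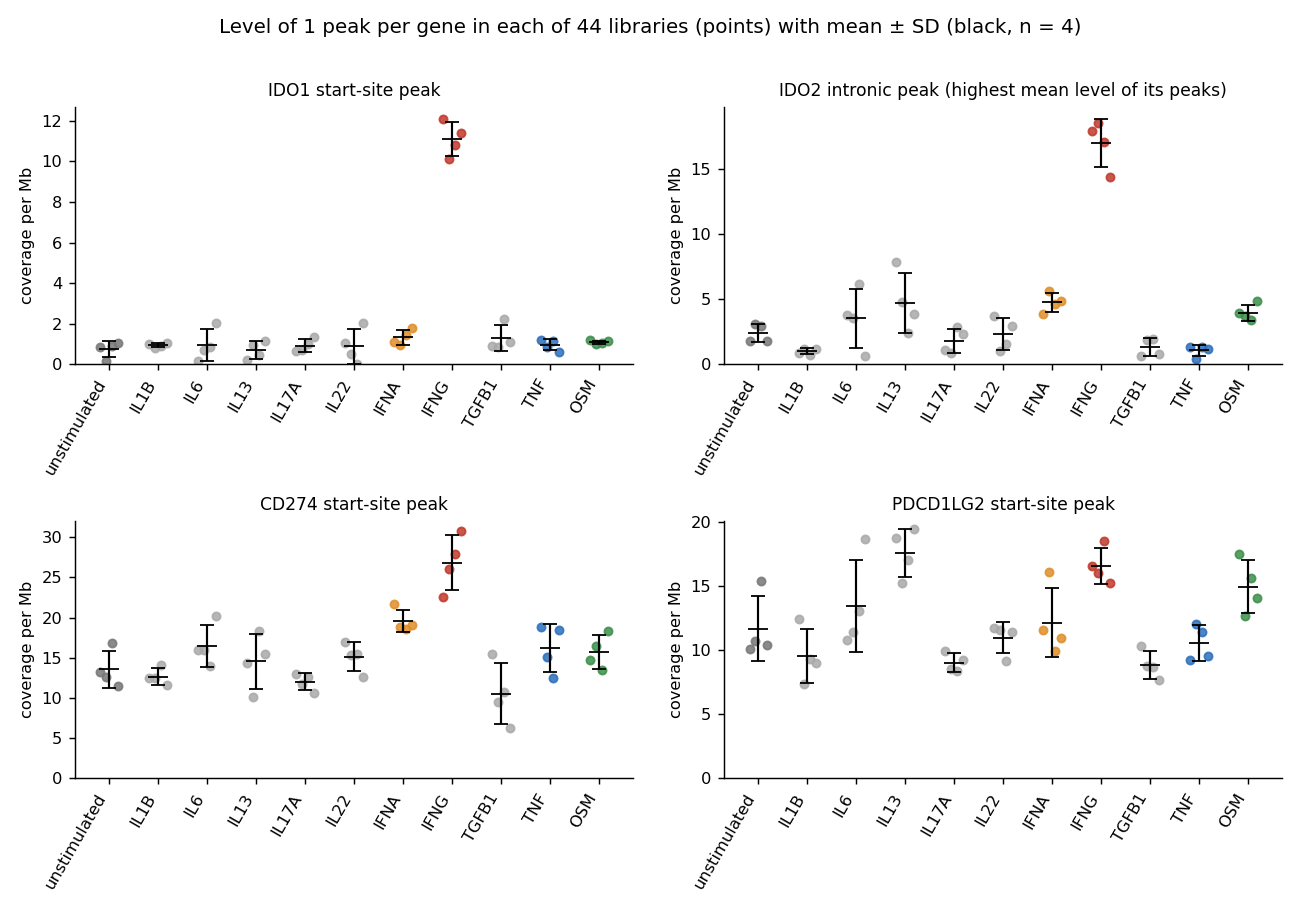
Coverage per Mb (vertical axis) of 1 peak per gene in each library (points) of the 11 groups (horizontal axis), with the mean ± SD in black (n = 4). The IFNγ libraries stand apart at IDO1 (10.1 to 12.1) and at the IDO2 intronic peak (14.4 to 18.6) and are highest at CD274 (22.6 to 30.8), while at PDCD1LG2 the IL-13 libraries (15.3 to 19.5) and the IFNγ libraries (15.3 to 18.6) overlap.

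No IDO2 peak lay within 1 kb of an IDO2 start site. The 1 IDO2 peak of the promoter class (39933065 to 39933565, centre -1.34 kb) averaged only 2.4 read equivalents and 0.398 coverage per Mb. In the absence of a start-site peak, IDO2 is represented by its peak with the highest mean over all libraries. That is an intronic peak 56.24 kb downstream of the start (chromosome 8, 39990637 to 39991137). Its mean of 3.99 coverage per Mb was highest through the IFNγ libraries, ahead of 3.76 at 40039922, so the choice of this peak favoured a high IFNγ value. It held 1.80, 3.07, 2.97 and 1.81 coverage per Mb in unstimulated libraries and 17.9, 18.6, 17.1 and 14.4 with IFNγ. The lowest IFNγ library thus lay above every library of the other 10 groups, whose highest was 7.85 with IL-13. The group mean was 7.04-fold higher with IFNγ (2.61 ± 0.31, limma adjusted p-value 1.78e-12). The IFNα libraries, at 3.90, 5.64, 4.64 and 4.88, also lay above the unstimulated ones, but the change was not called (0.88 ± 0.31, adjusted p-value 0.215). The IL-1β libraries (0.740 to 1.22) and the TNF libraries (0.441 to 1.35) lay below the unstimulated ones without being called (-0.93 ± 0.31 and -0.91 ± 0.31, adjusted p-values 0.0697 and 0.0671). For TNF the adjusted p-value was 0.0438 with loess offsets. The peak holds 2 GAS matches. A neighbouring peak at 39989686 to 39990186, which overlaps a coding exon of IDO2, held 0.679, 0.753, 0.224 and 1.03 in unstimulated cells and 2.44, 2.06, 2.57 and 4.75 with IFNγ (1.55 ± 0.38, adjusted p-value 6.44e-03). This neighbouring peak holds no match to the 5 searched motifs. Its call was lost without unstimulated replicate 3 (0.0773) and without IFNγ replicate 4 (0.0911).

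The other IFNγ calls named after IDO2 lie next to or inside IDO1. The peak at 39918748 to 39919248 lies within the IDO1 gene body, over an IDO1 coding exon in GENCODE v44, although the deposited table names it after IDO2. It held 0.710, 0, 0 and 0.256 coverage per Mb in unstimulated cells and 2.77, 2.07, 2.34 and 2.07 with IFNγ (2.02 ± 0.40, limma adjusted p-value 1.45e-04). The peak at 39929547 to 39930047 lies past the end of IDO1 and -4.85 kb from the IDO2 start, and held 0, 0.190, 0.261 and 0.182 in unstimulated cells and 1.36, 1.93, 1.08 and 2.91 with IFNγ (1.77 ± 0.37, adjusted p-value 4.44e-04). Both were separated from the unstimulated libraries, which averaged 1.5 and 0.9 read equivalents. The peak at 39918748 holds no match to the 5 searched motifs, and that at 39929547 holds an AP-1 match only. Of the 45 IDO2 peaks 37 were called for no cytokine.

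The CD274 promoter was open before stimulation and rose with IFNγ. Its start-site peak (chromosome 9, 5450222 to 5450722), in which the printed promoter window lies, held 13.3, 12.7, 16.9 and 11.6 coverage per Mb in unstimulated cells. Its mean over all libraries was above that of 97.3% of tested peaks. With IFNγ it held 22.6, 26.0, 27.9 and 30.8, which was 1.97-fold higher with no overlap (0.96 ± 0.16, limma adjusted p-value 5.48e-06). With IFNα it held 21.7, 18.9, 18.6 and 19.1, all above the highest unstimulated library, but the change of 0.52 ± 0.16 was not called (adjusted p-value 0.130). It was called with voom weights (0.0487) and with the composition factor taken over peaks with coverage in every library (0.0486), an alternative chosen after seeing the data. TNF left the promoter within the unstimulated range in 2 of 4 libraries (18.8, 15.1, 12.5 and 18.4), with a change of 0.24 ± 0.16 (adjusted p-value 0.590). The lowest group mean was that of TGF-β1, 10.6 ± 3.82 against 13.6 ± 2.31 (SD, n = 4). This change of -0.40 ± 0.16 was not called (adjusted p-value 0.179), and it was called without TGF-β1 replicate 1 (0.0238).

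**Figure D2:**
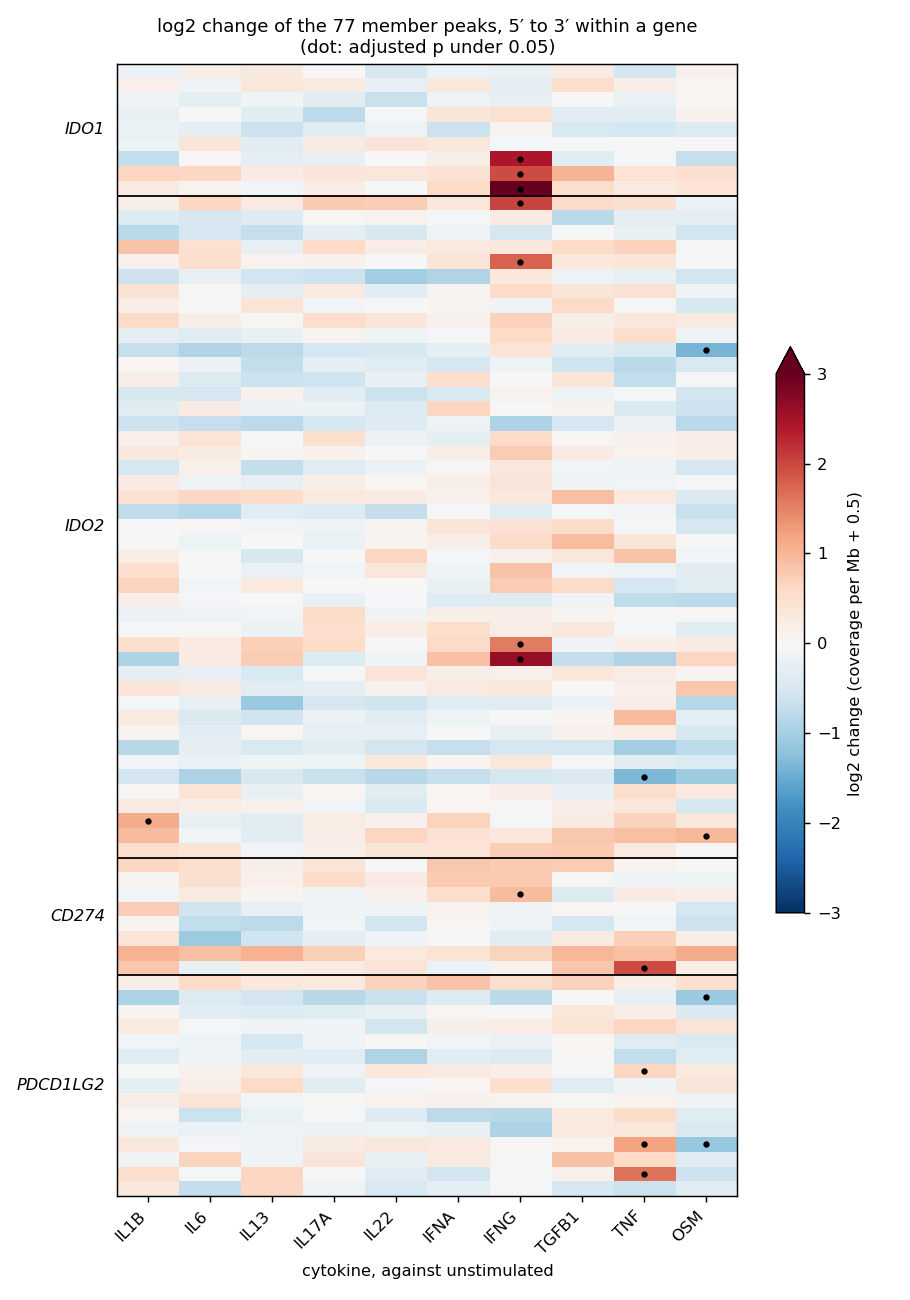
Log2 change against unstimulated (colour, coverage per Mb + 0.5) of each of the 77 peaks (rows, ordered along each gene) for each of the 10 cytokines (columns), with a dot where the adjusted p-value was under 0.05. The column with most dots is IFNγ with 8, followed by TNF with 5 and OSM with 4.

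TNF raised accessibility in other regions of the PD-1 ligand genes than IFNγ. It raised 4 peaks and lowered 1, which is 6.49% of the 77 where 4.14% of all tested peaks were called, and its raised peaks were 1 of CD274 and 3 of PDCD1LG2. With IFNγ none of these 4 was called (changes of -0.03 to 0.19).

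The CD274 peak raised by TNF lies 18.5 kb downstream of the start site, in the untranslated part of an exon (5468796 to 5469296). It holds no match to the 5 searched motifs, and its sequence is not shown above. It held 0.476, 0.779, 0.451 and 1.17 coverage per Mb in unstimulated cells and 2.81, 3.85, 5.56 and 4.62 with TNF. All TNF libraries lay above every library of the other groups, of which the highest was 2.2 with TGF-β1 (change 1.95 ± 0.37, limma adjusted p-value 2.72e-05). The IL-1β libraries held 0.902, 2.07, 1.76 and 1.74 and were not called (0.80 ± 0.37, adjusted p-value 0.326). IL-1β was given at a lower dose than TNF per the labels, and a legend of the study gives a dose lower still, so the values stand side by side without a comparison.

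At PDCD1LG2 the strongest peak of the locus lies just upstream of the start site, at 5509548 to 5510048 (centre -0.73 kb), and is shown above as the upstream window. It held 25.2, 22.8, 22.9 and 19.1 coverage per Mb in unstimulated cells and 33.3, 42.0, 31.4 and 34.6 with TNF, 1.57-fold higher without overlap (0.64 ± 0.13, limma adjusted p-value 2.03e-04). Its mean over all libraries was above that of 99.1% of tested peaks. A pair of weaker intronic peaks rose more. The distal one (5549924 to 5550424, 39.64 kb downstream) held 1.65, 0.781, 1.35 and 1.21 in unstimulated cells and 5.13, 5.40, 4.79 and 3.92 with TNF, 3.85-fold higher (1.62 ± 0.37, adjusted p-value 9.88e-04). The proximal one (5531433 to 5531933, 21.15 kb downstream) held 1.41, 1.59, 1.30 and 1.70 in unstimulated cells and 3.28, 4.42, 5.69 and 3.39 with TNF, 2.80-fold higher (1.21 ± 0.33, adjusted p-value 0.0124). Neither overlapped the unstimulated range. With a pseudocount of 0.1 both missed the threshold (adjusted p-values 0.0509 and 0.0630), and the proximal peak also missed it without TNF replicate 3 (0.0829).

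**Figure D3:**
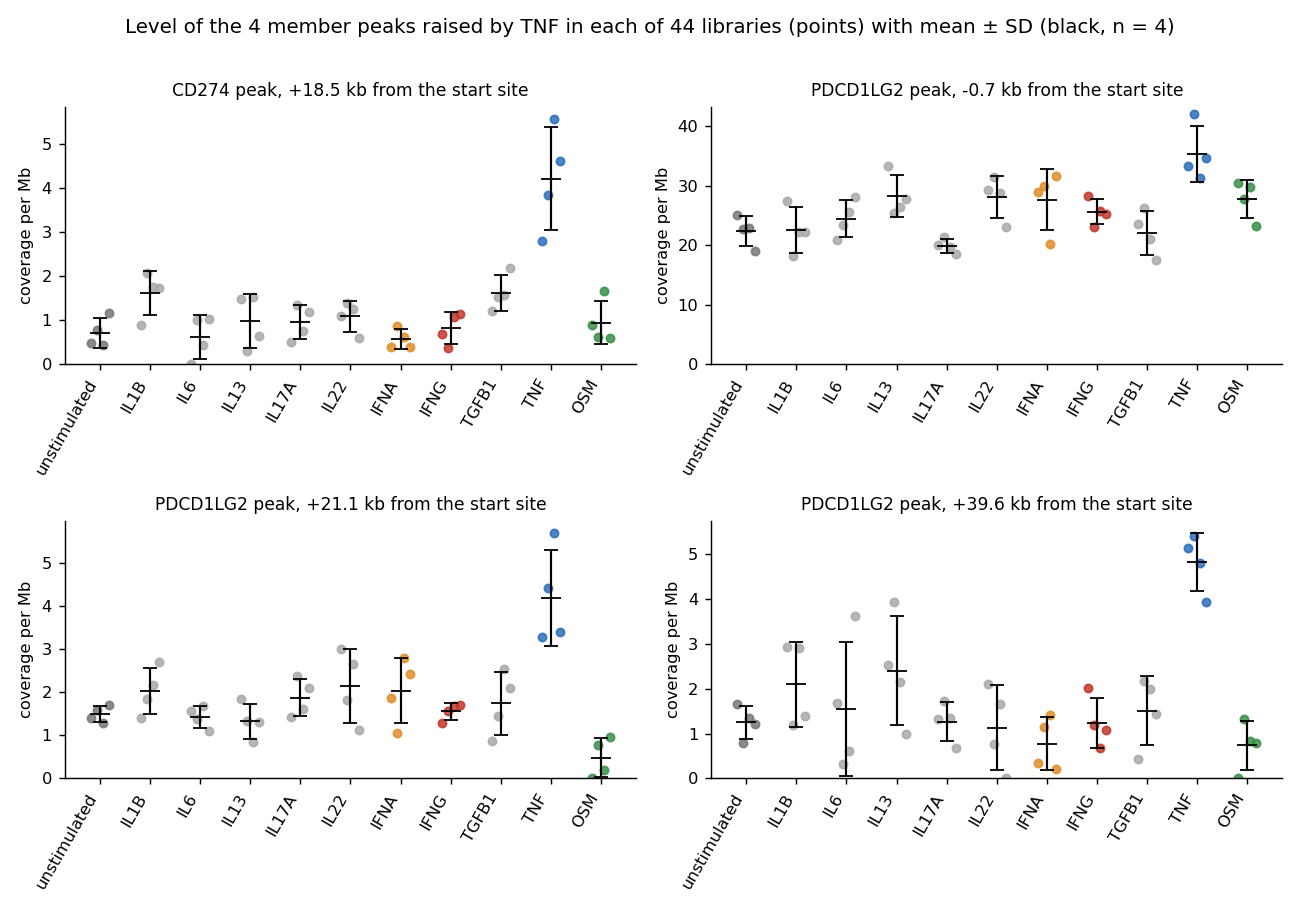
Coverage per Mb (vertical axis) in each library (points) of the 11 groups (horizontal axis) for the CD274 peak and the 3 PDCD1LG2 peaks raised by TNF, with the mean ± SD in black (n = 4). The TNF libraries held 2.81 to 5.56 at CD274, 31.4 to 42.0 at the upstream PDCD1LG2 peak, 3.28 to 5.69 at the proximal and 3.92 to 5.40 at the distal intronic peak.

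The PDCD1LG2 start-site peak itself (5510229 to 5510729) was called for no cytokine. It held 10.1, 10.8, 15.5 and 10.4 coverage per Mb in unstimulated cells, 18.8, 15.3, 17.0 and 19.5 with IL-13 and 16.6, 16.0, 18.6 and 15.3 with IFNγ. In both groups 3 of the 4 unstimulated libraries lay below all treated ones, and unstimulated replicate 3 lay among them. The change with IL-13 was 0.59 ± 0.18 (limma adjusted p-value 0.0616) and that with IFNγ 0.51 ± 0.18 (0.159). The IL-13 change was called with 4 alternatives, namely the GC correction (0.0392), voom weights (3.95e-03), quality weights (0.0188) and a fit of only the groups compared (0.0246), and without unstimulated replicate 3 (0.0250). The IFNγ change was called with voom weights (0.0157) and in the fit of only the groups compared (0.0320).

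TNF lowered 1 peak, at 40015133 to 40015633 in an exon of IDO2, which is named after its values were seen. The unstimulated libraries averaged 1.5 ± 0.477 coverage per Mb and the TNF libraries 0.296 ± 0.252 (SD, n = 4). This TNF mean lies below the 3-read limit of each TNF library (0.313 to 0.609). The peak fell by 1.35 on the log2 scale (limma adjusted p-value 0.0195), with no overlap. The call was lost without unstimulated replicate 2 (0.0685), unstimulated replicate 3 (0.0857), TNF replicate 1 (0.0600) or TNF replicate 3 (0.128).

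**Figure D4:**
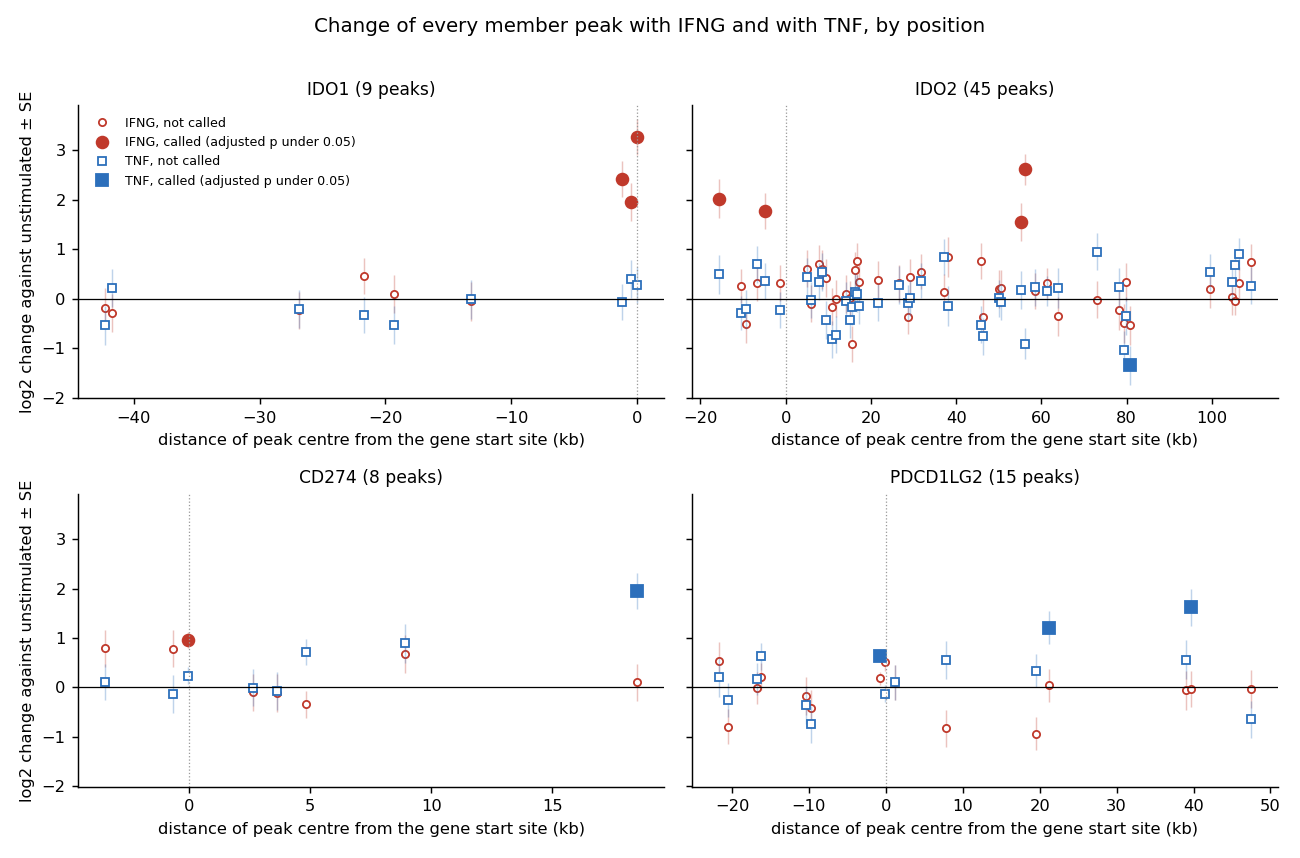
Log2 change ± SE against unstimulated (vertical axis) of every peak of the 4 genes, by the distance of the peak centre from the gene start in kb (horizontal axis), for IFNγ (red circles) and TNF (blue squares), filled where called. At IDO1 the called IFNγ peaks lie between -1.18 and 0.02 kb, and at PDCD1LG2 only TNF peaks are filled, between -0.73 and 39.64 kb.

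IFNγ and TNF were also compared directly. Of the 77 peaks 17 differed, 22.1% of them, where 6.06% of all tested peaks did. IDO1 had 3 and IDO2 5 peaks higher with IFNγ, and 0 higher with TNF. CD274 had 1 peak higher with IFNγ, the promoter (0.72 ± 0.16, limma adjusted p-value 7.14e-04), and 2 higher with TNF, one of them the exonic peak (-1.85 ± 0.37, adjusted p-value 6.04e-05). PDCD1LG2 had 1 peak higher with IFNγ, at the start site (0.63 ± 0.18, adjusted p-value 9.61e-03), and 5 higher with TNF. Among the latter were the upstream peak (-0.45 ± 0.13, 0.0172), the proximal intronic peak (-1.16 ± 0.33, 0.0129) and the distal intronic peak (-1.65 ± 0.37, 4.76e-04). The calls outside the named-peak rule, given after their values were seen, were an IDO2 intronic peak at 39980256 (1.29 ± 0.37, 0.0126), the CD274 intronic peak at 5455120 (-1.05 ± 0.27, 3.29e-03) and the PDCD1LG2 intronic peaks at 5518038 (-1.39 ± 0.38, 8.64e-03) and 5529741 (-1.28 ± 0.33, 4.56e-03). Of the IDO2 differences, that at 39980256 was lost without IFNγ replicate 3 (0.107) and that at 39989686 without IFNγ replicate 4 (0.0880). With a pseudocount of 0.1 the differences at IDO2 39918748 (0.142), 39929547 (0.148) and 39989686 (0.0591) and at CD274 5455120 (0.0928) were lost, and 12 of the 17 calls were left. The start-site difference was lost without IFNγ replicate 3 (0.0533) or TNF replicate 1 (0.0545). The upstream difference was lost without IFNγ replicate 2 (0.0866) or TNF replicate 2 (0.151), and the proximal intronic one without IFNγ replicate 1 (0.0501) or TNF replicate 3 (0.0829) and with a pseudocount of 0.1 (0.0646).

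The interferons differed at the IDO genes. Each was given at 1 dose, 10 ng/ml, so a difference in type of interferon and in strength of response cannot be told apart. Against unstimulated cells IFNα had 0.651% of all tested peaks called and IFNγ 1.57%. Between the 2 interferons 6 of the 77 peaks (7.79%) differed, where 1.03% of all tested peaks did. All 6 were higher with IFNγ, and 3 were named after IDO1 and 3 after IDO2. The IDO1 start-site peak differed by 2.68 ± 0.36 (limma adjusted p-value 9.60e-09), the peak upstream of it by 2.23 ± 0.37 (8.92e-06) and the IDO2 intronic peak by 1.74 ± 0.31 (3.43e-05). The other 3 differences were lost with a pseudocount of 0.1 (0.157 for 39913150, 0.135 for 39918748 and 0.268 for 39929547). That at 39913150 was also lost without IFNα replicate 2 (0.0862) or 3 (0.0696) or IFNγ replicate 1 (0.0749) or 2 (0.0800), and that at 39918748 without IFNα replicate 4 (0.0994). That at 39929547 was lost without IFNα replicate 2 (0.0758) or 4 (0.201) or IFNγ replicate 2 (0.0690) or 4 (0.149). At the CD274 promoter the 4 IFNγ libraries lay above the 4 IFNα libraries, but the difference of 0.44 ± 0.16 was not called (adjusted p-value 0.262). It was called with voom weights (0.0203).

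With OSM 4 peaks were called, a share close to that of all tested peaks, so the count is nothing particular to these genes. Counting both directions, 1 rose and 3 fell, which is 5.19% of the 77 where 5.18% of all tested peaks were called. The proximal PDCD1LG2 intronic peak that rose with TNF fell by 1.15 with OSM (limma adjusted p-value 0.0194), from the unstimulated values above to 0, 0.781, 0.198 and 0.968 coverage per Mb. A PDCD1LG2 distal peak (5489728 to 5490228) held 0.712, 0.941, 0.451 and 0.604 in unstimulated cells and 0, 0, 0 and 0.192 with OSM (-1.10 ± 0.35, adjusted p-value 0.0419), and an IDO2 intronic peak (39943781 to 39944281) went from 0.652, 1.49, 1.40 and 0.498 to 0.00429, 0.234, 0 and 0 (-1.39 ± 0.39, adjusted p-value 0.0139). In all 3 the groups did not overlap, but in the last 2 the OSM libraries averaged 0.3 and 0.5 read equivalents, below the 3-read limit. The raised peak lay past the end of IDO2 (40040830 to 40041330, 1.01 ± 0.32, adjusted p-value 0.0424), is named after its values were seen, and was lost with library totals (0.149) and without unstimulated replicate 1 (0.266) or 4 (0.0615) or any OSM replicate (0.0585 to 0.161). With OSM the median change of all tested peaks was -0.10, and it was -0.22 with median-of-ratios scaling and 0.00 with loess offsets. With loess offsets the peaks at 5489728 and 39943781 were not called (0.285 and 0.135). The call at 39943781 was also lost without unstimulated replicate 2 (0.0682) or 3 (0.0630). That at 5489728 was lost with library totals (0.0543) and without unstimulated replicate 1 (0.0824), 2 (0.119) or 4 (0.0741) or OSM replicate 1 (0.110), 2 (0.112) or 3 (0.104). The decrease at 5531433 was lost without unstimulated replicate 4 (0.0615), OSM replicate 1 (0.181) or OSM replicate 3 (0.0855), with voom weights (0.0647) and with a pseudocount of 2 (0.0875).

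IL-1β raised 1 peak, which is 1.3% of the 77 where 3.19% of all tested peaks were called. The peak lies between genes, 105.52 kb downstream of the IDO2 start (40039922 to 40040422), and held 1.03, 4.48, 4.29 and 2.85 coverage per Mb in unstimulated cells and 6.66, 5.28, 6.42 and 8.57 with IL-1β. The groups did not overlap and the mean was 2.13-fold higher (1.10 ± 0.28, limma adjusted p-value 5.90e-03). The call was lost without unstimulated replicate 1 (0.237), the lowest of the unstimulated libraries, and without IL-1β replicate 4 (0.0516). The TNF libraries held 4.72, 4.63, 4.63 and 5.42 there and were not called (adjusted p-value 0.194).

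The other 6 cytokines had 0 called peaks among the 77. At an unadjusted p-value under 0.05 limma found 13 for TGF-β1, 9 each for IFNα and IL-13, 7 for IL-22, 5 for IL-6 and 2 for IL-17A, and voom weights gave 1 called peak for IFNα, 1 for IL-13 and 0 for the other 4. The share of all tested peaks called was 3.97% for TGF-β1, 1.4% for IL-13, 0.651% for IFNα, 0.084% for IL-22, 0.0646% for IL-6 and 0.0305% for IL-17A. The IL-6 count was 0 both with and without IL-6 replicate 4, the shallowest library. A CD274 intronic peak (5455120 to 5455620, chosen after its values were seen) fell by 1.09 with IL-6 without being called (limma adjusted p-value 0.0643), and was called with library totals (0.0414), median-of-ratios scaling (0.0349) and loess offsets (0.0292). In that peak a call also arose without IL-6 replicate 1 (0.0106), 2 (3.56e-03) or 3 (0.0181).

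Ordered by the group mean of log2 levels, the groups placed IFNγ first at IDO1, IDO2 and CD274, followed by IFNα in all 3, and IL-13 first at PDCD1LG2, followed by IFNγ. At IDO1 the order ran from 11.1 with IFNγ to 1.34 with IFNα and 1.29 with TGF-β1, and ended with IL-13 at 0.697. With library totals or median-of-ratios scaling TGF-β1 stood before IFNα. At IDO2 it ran from 17.0 with IFNγ to 4.76 with IFNα and ended with TNF at 1.07 and IL-1β at 1.01, and at CD274 from 26.8 with IFNγ to 19.6 with IFNα and ended with IL-17A at 12.0 and TGF-β1 at 10.6. At PDCD1LG2 the means lay closer together, from 17.6 with IL-13 and 16.6 with IFNγ to 8.87 with TGF-β1. The IFNγ and IFNα libraries did not overlap at IDO1, IDO2 and CD274, and the two-sided exact permutation p-value of 0.0286 there is the smallest that 4 against 4 libraries allow. Adjusted over the 10 neighbouring pairs of a peak it was 0.286, so no pair passed. A lone pair at the smallest possible p-value cannot pass this adjustment, and the pairs were formed from the order itself. The other neighbouring pairs had exact permutation p-values of 0.114 or more. At IDO2 the place of IFNγ was favoured by the choice of peak.

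The promoter peaks whose 11 group means followed most closely those of the member peaks were sought among 21601 promoter peaks. For the IDO1 start-site peak they were CD74, which encodes the MHC class II invariant chain (Pearson r = 0.977), GBP5, a guanylate-binding protein (0.967), HLA-DRB1 (0.959), UNC5C (0.953) and GBP6 (0.953). For the IDO2 intronic peak they were CX3CL1, which encodes a chemokine (0.981), PSMG3 (0.979), WDR25 (0.962), CA14 (0.957) and GHITM (0.950). For the CD274 promoter they were RELA, which encodes an NF-κB subunit (0.958), SAMD9 (0.950), HLX-AS1 (0.949), MICB (0.947) and NOD1 (0.944). For PDCD1LG2 they were LOC101926933 (0.921), LOC101929217 (0.906), ZNF343 (0.904), USP22 (0.904) and SMARCD2 (0.903). The points are 11 group means that share libraries and depth across peaks, so r is a description of likeness, and at IDO1 and IDO2 the IFNγ group alone lay far from the rest.

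Genes of the same pathways were followed through the peak nearest to their start site within 1 kb. In the interferon gamma signalling list (receptors, kinases, transcription factors and inhibitors) all 9 genes had such a peak, and IFNγ raised 5 and lowered 0, with a median change of 0.57. Of all tested peaks 1.57% were called with IFNγ. Among them the feedback inhibitor SOCS1 rose by 0.76 ± 0.16 (limma adjusted p-value 3.23e-04). IRF9 rose by 0.67 ± 0.16 (4.19e-03), IRF1 by 0.57 ± 0.13 (1.41e-03) and the kinase gene JAK1, named after its values were seen, by 0.61 ± 0.18 (0.0408). The receptor genes IFNGR1 and IFNGR2, with JAK2 and PTPN2, were not called (-0.18 to 0.09). The JAK1 and SOCS1 peaks were also called with other cytokines, each compared with the same 4 unstimulated libraries. OSM raised 4 of the 9, among them JAK1, IRF1 and SOCS1, where 5.18% of all tested peaks were called. IL-6, IL-13 and IL-22 each raised JAK1 and SOCS1, and IL-17A raised JAK1. The shares of all tested peaks called were 0.0646% with IL-6, 1.4% with IL-13, 0.084% with IL-22 and 0.0305% with IL-17A. With voom weights the calls among all tested peaks went from 263 to 3 with IL-6 and from 342 to 8 with IL-22. Whether these JAK1 and SOCS1 calls hold under such alternatives was not tested. IL-1β and TNF raised 0 of the 9, and TGF-β1 lowered 1. IFNα raised 3 of the 9, among them IRF9 (0.87 ± 0.16, adjusted p-value 1.18e-04) and SOCS1 (0.61 ± 0.16, 0.0237), and 0 of the 9 differed between the interferons. The shares of all tested peaks called were 0.651% with IFNα and 1.03% between the interferons.

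Of 12 other genes of the kynurenine pathway list, which also holds TDO2 for the same first step and the transporter gene SLC7A5, 11 had a start-site peak, and IFNγ raised 0 and lowered 1, with a median of -0.01. The lowered gene was QPRT, which encodes the enzyme that converts quinolinate (-0.98 ± 0.28, limma adjusted p-value 0.0334), and it fell by 0.92 with TNF as well (adjusted p-value 0.0267). Of 18 other checkpoint and costimulatory ligand genes 15 had such a peak, and IFNγ raised 1, TNFRSF14, whose product binds the inhibitory receptor BTLA (0.91 ± 0.20, adjusted p-value 1.75e-03). IFNα raised 1 as well, the galectin gene LGALS9 (1.14 ± 0.30, adjusted p-value 0.0329), and TNF 0 of the 15. Among the genes next to the member genes, 0 of 6 with a start-site peak around CD274 and PDCD1LG2 and 0 of 8 around IDO1 and IDO2, of which TM2D2 and ADAM9 share 1 peak, were called with IFNγ, IFNα or TNF, with medians of -0.08 and -0.06 with IFNγ. Of all tested peaks 1.57% were called with IFNγ, 0.651% with IFNα and 4.14% with TNF. At such shares a count of 0 in a list this short says little about the list. These list counts were computed with the main scaling only.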

How the data were processed

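ATAC-seq was measured in 44 Ccd18-Co libraries, 4 for each of 11 groups taken from the sample labels. The deposited values are read coverage signal summed over each peak (a bedcov matrix of the authors, 407383 peaks of 500 bases with a gene name and class), with hg38 and MACS2 named in the submitters' processing notes. The study's methods describe peaks of 500 bases, merged with ArchR, for its single-cell data and peaks of variable length for its bulk data; which set the table holds is not given in the sources used here, nor is whether coordinates count from 0 or 1. Starts are printed as deposited. All columns mapped to a sample (0 left out).

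From there, each value was divided by the library's total coverage in Mb (148.82 to 823.14) and a composition factor, the trimmed mean of log ratios over all peaks (30% of ratios and 5% of means trimmed at each end), then taken as log2(value + 0.5). Peaks with a mean log2 level under -3 were left out. A read equivalent is 75 bases of coverage, the most frequent low value. The intervals and limits quoted from it cover counting error only. The unit is coverage and not whole reads, so limma (3.58.1, R 4.3.3) was fitted to all groups (33 residual degrees of freedom), with its trend, for 12 contrasts. Python used numpy 2.4.6, scipy 1.17.1 and pandas 2.3.3. The fit was tested on simulated data.

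Named peaks were, per gene, the start-site peak (within 1 kb, otherwise the peak with the highest mean) and up to 5 further called peaks with the smallest adjusted p-values. Likeness was Pearson's r over the 11 group means among promoter peaks with a mean of at least 1 coverage per Mb. The member genes and the gene lists were chosen with earlier results of these data known. Single values of some list genes are not reported here. Alternatives were library totals, median-of-ratios scaling, loess offsets, a GC correction, pseudocounts of 0.1 and 2, no filter, voom and quality weights, only the groups compared, a replicate block, each library left out and, for motifs, the central 300 bases. A trimmed mean over peaks with coverage in every library was added after seeing the data. The replicate numbers paired the libraries weakly at most.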

Additional observations from a re-analysis of the deposited data

Results flagged for a closer look

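In 9 of 176 groups of 4 libraries at the named peaks, 1 library stood far from the other 3 by Dixon's test. Chance flags about 1 in 20 groups. All values are coverage per Mb.

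At the CD274 promoter IFNα replicate 1 held 21.68, where the other IFNα libraries held 18.64 to 19.13. At the PDCD1LG2 start-site peak unstimulated replicate 3 held 15.46 against 10.13 to 10.76 in the others, and it is the library without which the IL-13 change there was called. At the same peak IL-22 replicate 3 held 9.191 against 11.47 to 11.77. At the PDCD1LG2 distal peak 5489728 OSM replicate 4 held 0.192, while the other OSM libraries had no coverage.

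At IDO2 39929547 IL-6 replicate 4, the library with the lowest total, held 2.217 against 0.1239 to 0.1784, which is 4.3 read equivalents. TNF replicate 3 held 0.8062 against 0.3395 to 0.4062 at IDO2 39918748, and OSM replicate 2 held 0.2335 against 0 to 0.004286 at IDO2 39943781. At the distal peak IDO2 40039922 IFNα replicate 1 was low (3.897 against 4.985 to 5.171) and TNF replicate 4 was high (5.423 against 4.627 to 4.716).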

How the results depend on the processing

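Over 44 peak results and 20 alternatives each, 823 of the values kept their direction and side of the threshold. Of the others, 49 lost the call, 5 gained one and 3 changed sign. The 44 were calls at named peaks, and the IFNγ, IFNα and TNF changes of the peak representing each gene. They leave out other results that gained or lost calls, as with IL-13 and IL-6 above. With OSM the CD274 peak at 5459203, chosen after its values were seen, was not called. Calls arose there with loess offsets (adjusted p-value 0.0157), the GC correction (0.0335) and a pseudocount of 0.1 (0.0466). Quality weights (0.0331) and only the groups compared (0.039) also gave calls. The 3 sign changes were all at the PDCD1LG2 start-site peak in comparisons that were not called: with IFNα the change was -0.006 without unstimulated replicate 1 (range without single libraries -0.085 to 0.189), and with TNF it was 0.009 without unstimulated replicate 3 (range -0.192 to 0.009).

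The number of called peaks among the 77 moved for the IL-6 contrast from 0 to 1 with library totals, median-of-ratios scaling, loess offsets and the trimmed mean over peaks with coverage in every library, and for IL-13 from 0 to 1 with the GC correction, voom weights, quality weights and only the groups compared. For IFNα it moved from 0 to 1 with voom weights and with the added trimmed mean, and for IL-1β from 1 to 2 with only the groups compared. For OSM it moved from 4 to 2 with the first 4 scalings and to 7 with quality weights. With a pseudocount of 0.1 TNF went from 5 to 3 and IFNγ against IFNα from 6 to 3. The cause was not tested.

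Without single libraries the counts ran from 0 to 1 for IL-1β, IL-6, IL-13 and TGF-β1, from 1 to 3 for OSM, from 3 to 5 for TNF, from 7 to 8 for IFNγ, from 4 to 6 for IFNγ against IFNα and from 15 to 17 for IFNγ against TNF. The ISRE count moved from 11 peaks to 7 in the central 300 bases.

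Libraries with the same replicate number deviated together weakly at most (correlations -0.0623 to 0.0468, 0 of 220 pairs over 0.1). The median correlation was 0.00192 for the same number and -0.000761 for other numbers. Of the 44 libraries 21 were closest to their own number, more than an even spread over 4 numbers would give. With the replicate block the counts were the same in all 12 comparisons, among them 8 for IFNγ and 5 for TNF.

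Depth limits most IDO2 peaks, 36 of 45 of which averaged under 5 read equivalents.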
